A study of Mus musculus with 22 samples.

Results

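Ventral Nqo1-negative mature olfactory sensory neurons (ventral mOSNs) were taken from droplet single-cell RNA-seq libraries of the mouse olfactory epithelium, the sensory sheet of the nose. A cell was counted as mature if it held more than 500 genes, more than 1500 unique molecular identifiers (UMIs) and under 20% mitochondrial UMIs, at least 5 UMIs of Omp and more Omp than Gap43 and Gng8 together. It also had to hold fewer than 3 UMIs of the basal keratins Krt5, Krt14 and Krt15, under 0.5% of UMIs from the sustentacular genes Cyp2g1, Cyp2a5 and Sec14l3, and under 5% from the neutrophil genes S100a8 and S100a9. A mature cell was placed in the ventral class if it held 0 UMIs of Nqo1 and Acsm4, at least 1 UMI of Ncam2 or Nfix and fewer than 2 UMIs of Cd36. Of 32293 deposited barcodes, 25185 passed the gene, UMI and mitochondrial limits, 9133 were mature and 3827 were ventral, which is 41.9% of the mature cells and 15.2% of the cells that passed. The other mature cells were 1776 dorsal cells (Nqo1 or Acsm4 and neither ventral marker), 636 with markers of both zones, 2592 with markers of neither and 302 Cd36-positive cells.

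The study asked what the loss of UPF3B does to the olfactory epithelium, and compared wild type (WT) with Upf3b-null mice. The single-cell libraries came from 4 WT (Upf3b+/y) and 4 Upf3b-null (labelled Upf3b-/-) male mice of 7 to 8 weeks. Their strain is C57BL/6 in the labels and C57BL/6J in the paper. Each library came from 1 mouse, and in null mice the allele was absent from all tissues and not only from neurons. Bulk RNA-seq was made from sorted mOSNs (4 WT and 4 null samples) that carried eYFP switched on by Omp-Cre, and bulk RNA bound to tagged ribosomes (RiboTag; 3 WT and 3 null samples) was made from mice with Omp-Cre and the RiboTag allele, with 3 males of 8 to 9 weeks pooled in each bulk sample. Because Omp-Cre acts in mOSNs of every zone, the bulk samples hold ventral and dorsal neurons together.

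UPF3B, encoded on the X chromosome, is a factor of nonsense-mediated RNA decay (NMD), which degrades transcripts whose translation stops upstream of an exon junction. UPF3A is its paralog, and UPF1, UPF2 and the SMG proteins carry out the steps they share. A mature olfactory sensory neuron transcribes a single odorant receptor gene from a single allele, and the receptor sets both the odours it answers to and the glomerulus its axon joins in the olfactory bulb. The epithelium is divided into zones by the receptors it uses. Neurons of the dorsal zone are known for Nqo1 and Acsm4, and neurons of the ventral zones for Ncam2 (also called OCAM) and the nuclear factor I genes.

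The ventral cells numbered 311, 314, 367 and 468 in WT mice 1 to 4 and 1138, 357, 215 and 657 in null mice 1 to 4. Together they held 12443191 UMIs, with 837579 to 3329539 per mouse. The median UMIs per ventral cell were 2650, 2604, 2160 and 3596.5 in the WT mice and 2651, 3463, 3697 and 3420 in the null mice. WT 3 was the shallowest of the 8, and its ventral cells had a median mitochondrial share of 16.28%, against 5.04% to 7.82% in the other 7 mice.

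The levels of the genes the rule used, those of other cell types included, describe the class and test nothing. Omp stood at a median of 4747 CPM over the 8 mice (CPM is the gene's UMIs scaled to a common total of UMIs per mouse) (3256 to 5911), against 401 in the cells that were not mature. Genes that did not enter the rule gave the same picture of a mature sensory neuron. Cnga2, a subunit of the olfactory cyclic nucleotide-gated channel, had a median of 557 CPM against 50.9 in the cells that were not mature. Adcy3, the olfactory adenylyl cyclase, had 653 against 55.8 CPM, Gng13, a G protein gamma subunit, had 7594 against 847, and Stoml3, a stomatin-like protein of olfactory cilia, had 5077 against 338. Trp63, a basal cell transcription factor that the rule did not use, was at 2.27 CPM in ventral cells against 38.0 in the cells that were not mature. Many cells lay close to the limits of the rule. Among ventral cells 1896 had exactly 1 UMI of Ncam2 and Nfix together, 202 had exactly 5 UMIs of Omp and 128 had 1 UMI of Cd36. Just outside, 354 cells had 1 UMI of Nqo1 or Acsm4 and otherwise met the rule, 196 cells had 4 UMIs of Omp and 50 had 2 UMIs of Cd36.

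**Figure D1:**
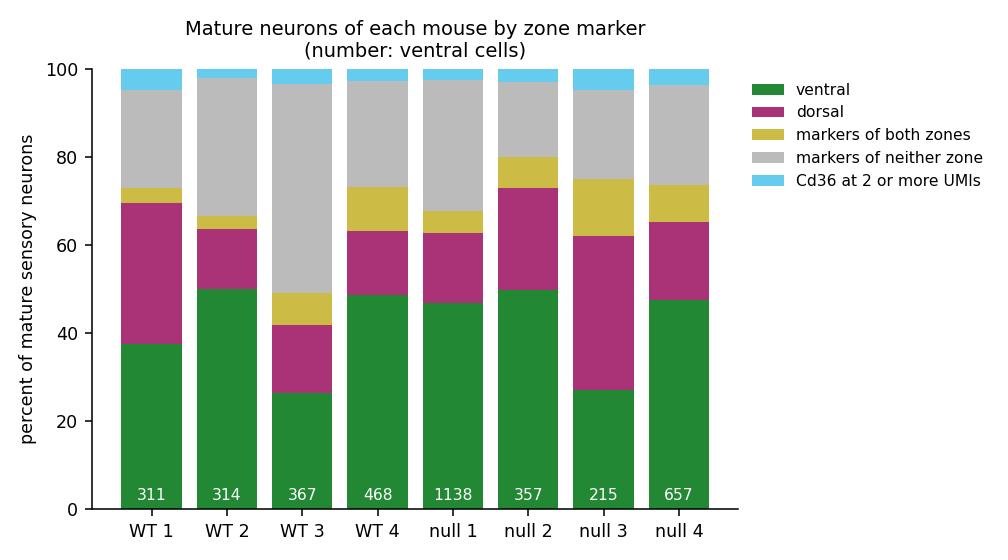
Share of mature neurons (y axis, percent) that fell in each class of the rule, for each of the 8 mice (x axis). Ventral cells made up 26.4% (WT 3) to 50.0% (WT 2) of the mature cells, and WT 3 and null 3 stood below the other 6 mice.

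Libraries differed more by mouse than by genotype in RNA of other cell types. The summed level of 5 erythroid genes in ventral cells, led by Hbb-bs (beta globin), was 1614, 65.3, 12007 and 10563 CPM in the WT mice and 3277, 90.4, 112766 and 14358 CPM in the null mice. Null 3 was thus far above the rest, and WT 2 and null 2 were at the bottom. The 15 neutrophil genes, led by S100a8, summed to 385, 434, 5576 and 2486 CPM in WT and 2242, 447, 9261 and 8324 CPM in null ventral cells. The 19 secreted mucosal protein genes found in the matrices, led by Obp1a (an odorant-binding protein), summed to 520.3, 615, 30677 and 14656 CPM in WT and 1316, 1535, 2219 and 4451 CPM in null. The sustentacular list, 9 genes led by Cyp2a5, summed to 77.9, 29.7, 1766 and 480 CPM in WT and 224, 45.2, 568 and 339 CPM in null. WT 3, WT 4, null 3 and null 4 therefore held most of this RNA, and results on ventral cells are given by mouse for that reason. No gene of these 4 lists was at 0 in all ventral cells. In cells that were not mature the same mouse had its own level: neutrophil genes summed to 6681 CPM in WT 3 and 98013 CPM in null 3. The part of this RNA in the genotype results was not tested apart from the fits that left out libraries or cells.

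**Figure D2:**
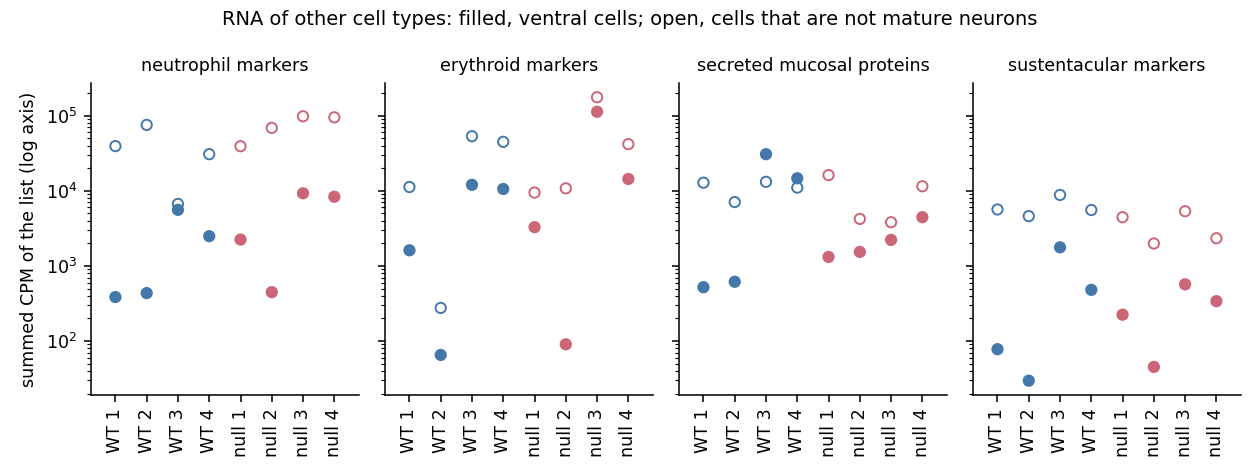
Summed CPM of 4 marker lists of other cell types (y axis, log scale) by mouse (x axis), with filled points for ventral cells and open points for cells that were not mature neurons. Erythroid RNA reached 112766 CPM in null 3 and 65.3 CPM in WT 2, and secreted mucosal RNA reached 30677 CPM in WT 3.

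Several neuronal genes also differed by library. S100a5, a calcium-binding protein known to follow odour-driven activity, was at 19312, 17746, 3652 and 7592 CPM in WT and 18861, 21264, 16589 and 5929 CPM in null ventral cells. The low mice were WT 3, WT 4 and null 4, and the genotypes overlapped. Nrp2, a semaphorin receptor that guides ventral axons, went the other way, with 49.6, 49.8, 209 and 235 CPM in WT and 60.7, 66.6, 21.5 and 215 CPM in null. Tubb3, the neuronal tubulin, was at 859, 834, 191 and 331 CPM in WT and 700.4, 773, 790.4 and 237 CPM in null, again lowest in WT 3, null 4 and WT 4.

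The share of mature cells that were ventral overlapped between WT and null mice. The shares were 37.4%, 50.0%, 26.4% and 48.5% in WT mice and 46.9%, 49.8%, 27.0% and 47.6% in null mice, so each genotype had 1 low mouse and the ranges overlapped. The means were 40.6% ± 11.0 (SD, n = 4) and 42.8% ± 10.6 (SD, n = 4), a difference of 2.24 percentage points (two-sided exact permutation test over mice, p = 0.886, adjusted p = 1 over the 5 shares tested). With 4 mice against 4 the smallest p this test can give is 0.0286. Thinned to 1500 UMIs per cell, the shares were 26.4%, 35.4%, 21.6% and 35.0% in WT and 32.5%, 36.7%, 19.97% and 35.0% in null. Of all cells that passed, ventral cells were 17.0%, 21.7%, 13.1% and 15.2% in WT and 15.9%, 26.8%, 12.6% and 11.3% in null (exact permutation p = 1). Since cells entered by their RNA counts, a lower share of cells and less RNA per cell cannot be told apart here, and in the bulk samples fewer cells of a type and less RNA per cell cannot be told apart either.

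Against dorsal cells of the same mouse, ventral cells differed in a set of genes beyond those of the rule. Ventral cells were also deeper than dorsal cells in all 8 mice, with median UMIs of 2650 against 2198 in WT 1 and 3420 against 2814 in null 4. Whether this depth has a part in the differences was not tested. The within-mouse difference is given as log2 of the ventral over the dorsal CPM after adding 10 CPM to each, as a description with no test, with the CPM of both zones scaled together by TMM factors (edgeR's trimmed mean normalisation). Of 3320 genes at 50 CPM or more in either zone, 181 (5.45%) were higher in ventral cells in all 8 mice and 49 (1.48%) were lower in all 8. The split depended on the scaling: with CPM that were not scaled by these factors, 219 of 3350 genes were higher in all 8 mice and 22 lower, so that 90.9% of these genes were higher, against 78.7% with scaling.

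Of the 29 listed guidance and adhesion genes outside the rule, 3 were higher in ventral cells in all 8 mice, 1 was lower in all 8, and 25 went both ways, with a median of 0 over the list. Nrp2 was higher in ventral cells in 8 of 8 mice, by a log2 difference of 1.08 (WT 3) to 2.01 (WT 2) with a median of 1.24, at a median level of 62.8 CPM in ventral and 18.7 CPM in dorsal cells. Robo2, a receptor for Slit cues, was lower by a median of 0.79, at 73.8 against 137 CPM. Epha5, an ephrin receptor, and Pcdh8, a protocadherin, were each higher in 8 of 8 mice, by a median log2 difference of 0.56 and 0.43.

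Among the genes highest in ventral cells were the transcription factor Nfib (median log2 difference 1.68), the glycine cleavage enzyme Gldc (1.64), Cidea, a lipid droplet protein (1.54), and Pdlim1, an actin-associated adaptor (1.73). Nfia, another nuclear factor I gene, was higher in 6 mice and lower in 2 (median 0.28), at 22.4 CPM in ventral and 21.7 CPM in dorsal cells. Gldc stood at a median of 211 CPM in ventral and 44.7 CPM in dorsal cells, yet its ventral level was 52.9, 63.9 and 87.5 CPM in WT 3, WT 4 and null 4, far below the other 5 mice. Olfr1250, an odorant receptor, had the largest median difference (2.14), although only 1 to 3 ventral cells per mouse used it as their dominant receptor. Syngr1 and Sytl1, both of vesicle membranes and their traffic, were higher by 0.84 and 1.33, and the septin Sept3 by 1.08. The remaining genes of the 12 on this side were Ifi27 (1.23), Gm42912 (0.87) and Pcolce2, a procollagen-processing enhancer (0.83).

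On the lower side were 12 named genes, of which Ppa1, Sult1d1 and Tpm1 were not lower in all 8 mice without the TMM factors. Papss2, which makes the sulfate donor used by sulfotransferases, was lower by a median of 1.66, and Sult1d1, a sulfotransferase, by 0.59. Acss2, an acetyl-CoA synthetase, was lower by 1.12 and the pyrophosphatase Ppa1 by 1.28. Cartpt, the precursor of a neuropeptide, stood at a median of 681 CPM in ventral and 1917 CPM in dorsal cells. Socs2, a suppressor of cytokine signalling, was lower by 1.75. Ptn (pleiotrophin), Tpm1 (tropomyosin), 2810001G20Rik and Hba-a2 (alpha globin) were lower by 0.59, 0.58, 1.01 and 1.53. Hba-a2, a gene of red blood cells, differed widely by mouse in both zones. It ran from 5.85 CPM in ventral and 18.8 CPM in dorsal cells of WT 2 to 12895 and 43411 CPM in null 3. Nob1 had the largest median difference on this side (-1.83), at 10.6 CPM in ventral and 63.0 CPM in dorsal cells. Nob1 (chr8:107412486-107425051, mm10) lies 9279 bases from Nqo1 (chr8:107388225-107403206), a gene of the rule, on the same strand.

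The zone contrast was weak in WT 3. The median absolute log2 difference of these 24 genes was 1.4999, 1.39, 0.29 and 1.04 in WT mice and 1.30, 1.61, 1.12 and 1.07 in null mice. As a description only, since the rule placed dorsal cells by it, Nqo1 in dorsal cells, without TMM factors, stood at 3679, 3659, 379.7 and 755 CPM in WT and 2036, 3116, 1494 and 860.3 CPM in null mice.

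**Figure D3:**
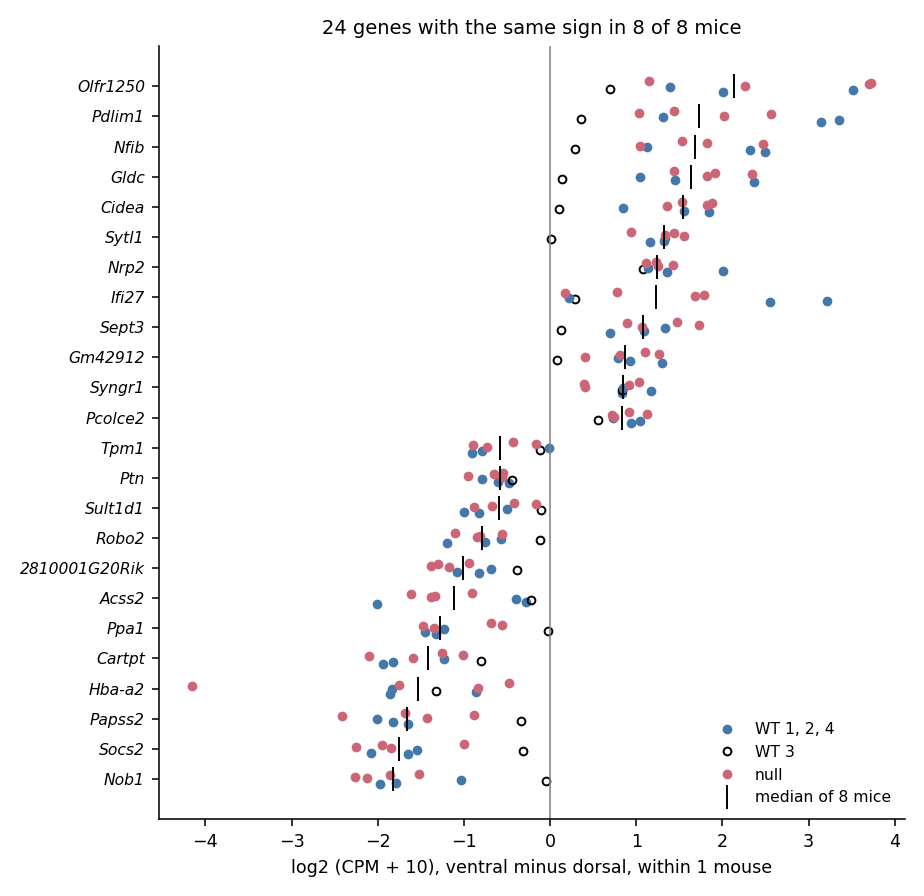
Within-mouse log2 difference of ventral over dorsal CPM (x axis, 10 CPM added to each) for the 12 genes highest and 12 lowest in ventral cells (y axis), with a point per mouse (blue WT, red null, open WT 3) and a bar at the median of the 8. Olfr1250 stood highest by its median (2.14) and Nob1 lowest, and the median absolute difference was smallest in WT 3 (0.29).

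The odorant receptor a ventral cell used was read from the receptor gene with at least 3 UMIs and at least 2 times the UMIs of the next. A dominant receptor was found in 1358 of 3827 ventral cells (35.5%), and 19 cells (0.496%) had more than 1 receptor at 3 UMIs or more. The share with a dominant receptor was 35.0%, 41.4%, 20.4% and 38.9% in WT mice and 33.4%, 38.1%, 37.2% and 40.5% in null mice. WT 3 was the low mouse, and the genotypes overlapped (33.9% ± 9.38 against 37.3% ± 2.95, SD, n = 4 each, exact permutation p = 0.714, adjusted p = 1).

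The ventral repertoire was broad. The assigned cells used 328 receptors, of which 95 were seen in a single cell, 15 in at least 15 cells and 4 in all 8 mice. By chromosome, receptors of chromosome 2 took the most cells (93 receptors, 385 cells, 28.4%), followed by chromosome 7 (46 receptors, 215 cells, 15.8%) and chromosome 19 (27 receptors, 177 cells, 13.0%). Dorsal cells used 235 receptors, and the 78 receptors seen in both zones were 23.8% of the ventral and 33.2% of the dorsal ones.

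The 10 most common receptors, ranked by mean share over mice and not by cells, held 204 cells, 15.02% of those assigned. Olfr1247 (chr2:89604959-89614130, mm10) was first by its mean over mice, at 1.98% ± 1.83 (SD, n = 8) of the assigned ventral cells, followed by Olfr1440 (chr19:12387279-12401584) at 1.82% ± 0.83. In WT mice Olfr1247 took 0.92%, 6.15%, 0% and 2.20%, and in null mice 1.58%, 1.47%, 1.25% and 2.26%, so a single mouse, WT 2, set its lead. Olfr1297 (1.61%), Olfr1384 (1.49%), Olfr794 (1.48%), Olfr309 (1.47%), Olfr1250 (1.44%), Olfr1222 (1.44%), Olfr140 (1.26%) and Olfr6 (1.21%) completed the 10. Their means lie within each other's spread over mice, so the order among them is not firm. Each was the receptor of at most 2 of the 575 assigned dorsal cells. Olfr1384 took 5.33% of the assigned ventral cells in WT 3 and at most 2.11% in any other mouse.

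Levels of some activity and axon guidance genes were set side by side in ventral cells that used different receptors. For the 15 receptors with at least 15 cells, the UMIs of a gene were divided by the UMIs expected from the same mice's ventral cells at the same depth, so that 1 means the level of ventral cells in general. These ratios are descriptions with no test, for genes chosen after values were seen, and the cells of a receptor come from 3 to 8 mice.

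S100a5 had by far the most UMIs of these genes. Cells with Olfr1297 had 0.06 times the expected S100a5 (0.09 in WT and 0.04 in null cells), whereas cells with Olfr131 had 2.11 times (2.53 and 1.92). Cells with Olfr794 and Olfr1440 were also low, at 0.21 and 0.22, and cells with Olfr1494 and Olfr1222 were high, at 1.91 and 1.53. Pcp4l1 went from 0.06 (Olfr1297) to 2.03 (Olfr309). Kirrel2, an adhesion protein known to follow activity in axon sorting, had 0 UMIs in Olfr1297 cells where 14.7 were expected, and stood at 2.31 in Olfr1348 cells. The adhesion gene Ncam1 went from 0.69 to 1.30.

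Olfr1297 cells stood apart in other genes too. Calb2, the calcium-binding protein calretinin, was at 5.03 times the expected level (5.41 in WT and 4.90 in null cells), with 104 UMIs spread over 20 of 20 cells. The ephrin Efna5 was at 2.68, while the ephrin receptor Epha5 was at 0.07 and Lrrc3b at 0.08. Olfr309 cells (chr7:86304474-86313708) had 9.47 times the expected Pcdh7, a protocadherin, with UMIs in 18 of 22 cells, and 4.84 times the expected Cidea, in 19 of 22 cells. Cidea was also at 4.81 in Olfr536 cells, in 16 of 20 cells. Pcdh8 was highest in Olfr1222 cells, at 3.12.

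The ratios of WT and null cells were set side by side for the 13 receptors with at least 5 cells in each genotype. Across these receptors, which share libraries, Spearman's rho between the WT and the null ratios was 0.79 for S100a5, 0.90 for Pcp4l1, 0.85 for Pcdh8, 0.77 for Cidea, 0.76 for Kirrel2 and 0.75 for Epha5. Over the 25 genes compared, leaving out the rule genes Omp and Ncam2, rho had a median of 0.55, was above 0.5 for 13 and at or below 0.2 for 9. The low ones were Plxna4 (-0.33), Nfib (-0.31), Ncam1 (-0.19), Gldc (-0.16), Cntn4 (-0.10), Nrp2 (-0.02), Plxna3 (0), Robo2 (0.003) and Tenm2 (0.10). The rho of the ratio with the median depth of a receptor's cells, over the 15 receptors, ran from -0.56 (Cartpt) to 0.71 (Nrp2), and was -0.01 for S100a5, 0.46 for Pcdh7, 0.45 for Pcdh8 and 0.45 for Cidea.

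**Figure D4:**
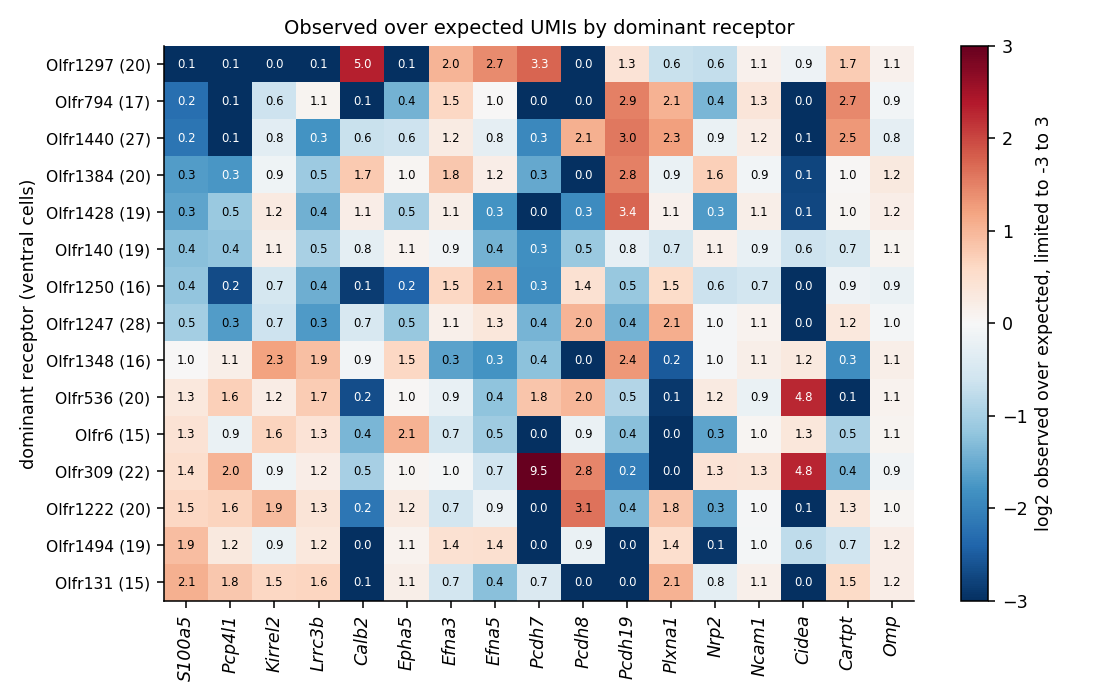
Observed over expected UMIs of guidance and activity genes (columns) in ventral cells grouped by their dominant receptor (rows, the 15 receptors with at least 15 cells), with color on a log2 scale. Olfr1297 cells show the lowest S100a5 (0.06) and the highest Calb2 (5.03), and Olfr309 cells the highest Pcdh7 (9.47).

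The genotype comparison first asked whether the targeted gene was lost. Upf3b (chrX:37091678-37110322, minus strand, mm10) was at 84.9, 80.7, 78.2 and 104 CPM in the ventral cells of WT mice and 0.31, 0, 2.69 and 0.39 CPM in those of null mice, from 72, 68, 86 and 216 UMIs against 1, 0, 2 and 1. All null mice lay below all WT mice. The log2 fold change was -7.17 (SE 0.54, edgeR quasi-likelihood test, Benjamini-Hochberg adjusted p = 0.000441), and it was -5.52 in dorsal cells (edgeR adjusted p = 0.00722), where Upf3b was again the single call, of 6610 genes (0.0151%). In bulk sorted mOSNs it was -9.17 (SE 0.50, edgeR adjusted p = 1.79e-05) and in RiboTag RNA -7.62 (SE 0.73, edgeR adjusted p = 0.271). Upf3b was the single gene past an adjusted p of 0.05 among 8762 tested in ventral cells (0.0114%), and 96 genes (1.1%) had an unadjusted p under 0.05. DESeq2 called 3 of 18680 genes (0.0161%): Upf3b, Snhg6 and Gm6619. Of the Gm6619 UMIs in WT 3, 99 of 137 came from a single cell. In simulated data of this size the edgeR test found 32.5% of genes changed by 1.5 on the log2 scale. Most changes of that size were thus missed there, and smaller ones could be missed too.

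Upf3a, the paralog of Upf3b, was at 75.5, 74.8, 20.9 and 49.3 CPM in WT and 50.0, 51.0, 65.98 and 34.3 CPM in null ventral cells. The genotypes overlapped, with a log2 fold change of -0.16 that was 0.028 without WT 1.

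Snhg6 missed the adjusted limit of edgeR but passed that of DESeq2, with no overlap between the genotypes. Snhg6 (chr1:9941959-9944118, minus strand) is a noncoding host of small nucleolar RNAs, a class of transcripts known as substrates of NMD. Its level was 42.5, 60.5, 41.8 and 36.2 CPM in WT and 135, 150.4, 125 and 92.5 CPM in null ventral cells. All 4 null mice were above all 4 WT mice, which held for 52 of the 8762 genes (0.593%), with 30 genes (0.342%) lower in all. The means were 45.3 ± 10.5 and 126 ± 24.5 CPM (SD, n = 4 each), a log2 fold change of 1.44 (SE 0.26) with adjusted p = 0.745 in edgeR and adjusted p = 0.00199 in DESeq2. The UMIs were spread over many cells: 11.6%, 14.97%, 9.54% and 12.4% of ventral cells in WT and 30.7%, 39.5%, 31.6% and 29.8% in null mice had at least 1.

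Snhg6 was higher in null mice in dorsal cells as well. In dorsal cells it was at 27.2, 49.2, 45.5 and 59.7 CPM in WT and 109, 164, 71.1 and 119.9 CPM in null mice, a log2 fold change of 1.47 (SE 0.33), and the difference of the genotype effect between zones was 0.03 (SE 0.24, edgeR unadjusted p = 0.905). In cells that were not mature it was at 58.1, 63.0, 47.9 and 53.2 CPM in WT and 124, 159, 60.8 and 106 CPM in null mice, where null 3 fell within the WT range. In the bulk sorted mOSNs Snhg6 had 2, 4, 6 and 3 reads in WT and 2, 14, 4 and 6 in null samples, and in RiboTag RNA it had 2, 1 and 4 reads in WT and 6, 5 and 0 in null samples, too few for a test in either. These reads are not scaled by depth. The sorted samples held 1216784 to 2739131 reads in WT and 2148960 to 3264827 in null.

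Snhg12, another small nucleolar RNA host, was higher in all 4 null mice as well. It stood at 22.4, 17.8, 21.8 and 31.9 CPM in WT and 44.7, 60.8, 43.1 and 46.7 CPM in null ventral cells. The means were 23.5 ± 5.97 and 48.8 ± 8.14 CPM (SD, n = 4 each), and the log2 fold change of 0.99 (SE 0.27) did not pass in edgeR (unadjusted p = 0.0039, adjusted p = 1). In dorsal cells the log2 fold change was 1.24 (SE 0.35). Hosts of this class are known to start in a run of pyrimidines, and the sequence around the annotated start is shown to let a reader see this feature, with the run of C and T around the start in capitals (chr4:132308665-132308692, plus strand, start base 132308678, RefSeq GRCm38.p6). GENCODE M21 starts the gene further upstream, at base 132308623, outside the window shown.
Snhg12: ccgttctcagTCCTTTCTCgcttcatcc
The run is 9 bases long, and 996 of 32851 RefSeq promoters (3.03%) have a run of C and T at least that long at their start. Of the 14 genes listed as small nucleolar RNA hosts or classic NMD substrates, 6 were in the matrices and 5 were tested. None of the 5 passed in edgeR, all 5 had a fold change above 0 and the median log2 fold change was 0.42, against 0.01 over all 8762 genes (4464 higher, 4298 lower).

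**Figure D5:**
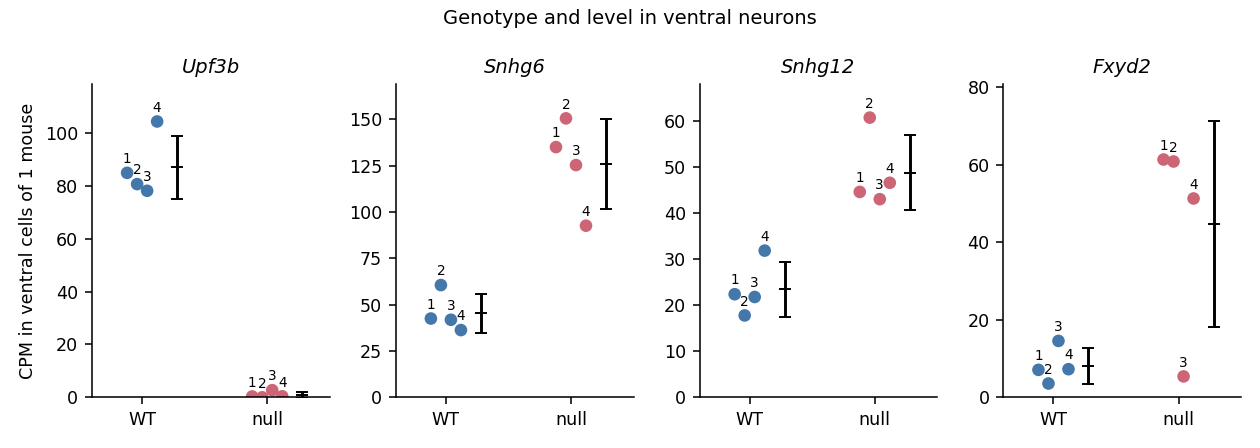
CPM in ventral cells (y axis) of Upf3b, Snhg6, Snhg12 and Fxyd2 in WT and null mice (x axis), with a numbered point per mouse and bars for the mean and SD. Upf3b lay at 78.2 to 104 CPM in WT and 0 to 2.69 CPM in null mice, and Snhg6 and Snhg12 lay higher in all 4 null than in all 4 WT mice.

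The other genes of smallest p did not pass and moved in part with single cells or libraries. Of the 8 genes named on the higher side, 4930570G19Rik was at 11.8, 14.2, 9.09 and 13.0 CPM in WT and 31.8, 26.3, 33.7 and 21.2 CPM in null mice (log2 fold change 1.17), with no overlap. Fxyd2, a regulator of the sodium pump, was at 7.08, 3.56, 14.5 and 7.25 CPM in WT and 61.3, 60.8, 5.39 and 51.3 CPM in null mice. Null 3 fell among the WT mice, and a single cell held 143 of the 195 UMIs in null 1 and 56 of the 74 in null 2. On the lower side, the MHC class II genes H2-Ab1, H2-Aa and H2-Eb1, known from antigen-presenting cells, had log2 fold changes of -2.16, -2.13 and -2.08. H2-Ab1 was at 42.5, 140.02, 267 and 87.5 CPM in WT and 58.2, 5.75, 32.3 and 27.8 CPM in null ventral cells, so null 1 lay above WT 1. Without WT 3 the log2 fold changes of H2-Ab1, H2-Aa and H2-Eb1 were -1.51, -1.33 and -1.16, and with the 2 mice per genotype with least hemoglobin RNA they were -1.34, -0.77 and -0.99. In those 4 mice's ventral cells with 0 S100a8 and S100a9 UMIs, H2-Ab1 was at -0.56 and H2-Eb1 turned to 0.10.

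The other gene lists of neuronal and RNA-decay function had medians from -0.53 to 0.13, with the genes that the cell rule used left out. In each list no member passed the edgeR limit, so the counts are of the sign of the fold change. Of 13 NMD factors other than Upf3b, 6 were above 0 and 7 below (median log2 fold change -0.02). The ATF4 stress response had 3 above and 5 below (-0.10), and the SR splicing factors 7 and 8 (-0.05). Olfactory transduction genes were above 0 in 13 of 20 cases (median 0.11), receptor choice regulators in 5 of 12 (-0.06), presynaptic genes in 10 of 16 (0.05), activity-dependent genes in 3 of 6 (0.13) and immediate early genes in 5 of 9 (0.02). Axon guidance genes were below 0 in 15 of 23 cases (-0.13), zone genes in 4 of 4 (-0.53) and immature neuron markers in 7 of 10 (-0.23).

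No gene of the lists of other cell types passed, and the genes of the rule were again left out. Erythroid genes were above 0 in 5 of 5 (2.35) and neutrophil genes in 10 of 11 cases (1.37), while sustentacular genes were below 0 in 2 of 2 (-0.96) and macrophage genes in 3 of 3 (-1.14). Interferon-stimulated and MHC genes were below 0 in 7 of 12 (-0.15), ensheathing glia genes in 2 of 2 (-0.25) and secreted mucosal genes in 7 of 14 (0.00), and 1 B cell gene was tested (0.67). No horizontal basal marker had enough UMIs to be tested. The part of single libraries in these medians was not tested.

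Whether the genotype effect differed between ventral and dorsal cells was tested as an interaction. Of 10174 genes, 8 passed (0.0786%) and 506 (4.97%) had an unadjusted p under 0.05 in edgeR. For most of the 8, a single barcode held most UMIs of the mouse with the highest level in ventral cells. Scgb1b27, a secretoglobin, had an interaction of -5.26 (edgeR adjusted p = 7.18e-07), and 1 cell held 520 of its 545 UMIs in WT 3. The collagen genes Col1a1 (-2.43) and Col1a2 (-2.17) had 701 of 892 and 519 of 722 UMIs of WT 3 in 1 cell. In WT 4 too, 1 cell held 333 of 433 Col1a1 UMIs and 1 cell held 303 of 467 Col1a2 UMIs. The plasma cell gene Jchain (-7.74) had 586 of 587 UMIs of WT 2 in 1 cell, and without WT 2 the interaction was 0.78. The calls of Scgb1b27, Olfr212, Ccl17, Dcpp3, Jchain and Mup5 were each lost when some single mouse was left out. Col1a1 and Col1a2 passed whichever mouse was left out, but leaving out 1 mouse cannot remove the collagen-rich cells of both WT 3 and WT 4. The chemokine Ccl17 (-8.52) had 318 of 325 UMIs of WT 3 in 1 cell, Mup5 (-2.83) 3401 of 3833 in WT 4, and the receptor Olfr212 (5.22) 25 of 25 in WT 1, beside 83 UMIs in 4 cells of null 2. Single cells stood out on the dorsal side too, where 1 cell held 51 of 51 UMIs of Ccl17 in null 1 and 32 of 33 UMIs of Olfr212 in WT 1. Dcpp3 (-2.12), a salivary and mucosal protein, was highest in dorsal cells of null 4, at 195 CPM against 31.9 CPM in ventral cells of that mouse, and 1 dorsal cell held 94 of the 166 UMIs. In ventral cells Dcpp3 was highest in WT 3 (37.7 CPM), where no cell held more than 2 of the 42 UMIs. Ventral cells over 5 times the median UMIs of their mouse numbered 11, and 5 of them, in WT 3, held 9.1% of that mouse's ventral UMIs.

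The last question was whether ventral cells used the receptors that were low in bulk null mOSNs. In the bulk sorted mOSNs 117 of 13424 transcripts (0.872%) were lower in null samples by DESeq2, among them transcripts of 78 odorant receptor genes. Of these 78, 41 were the dominant receptor of some ventral cell, Olfr1247 and Olfr1440 among them. Ventral cells used 328 receptors in all, and no share over all receptor genes is set beside the 41. The share of assigned ventral cells that used a listed receptor was 22.0%, 24.6%, 12% and 19.2% in WT mice and 16.8%, 12.5%, 15% and 13.5% in null mice. WT 3 lay below all null mice and the other 3 WT mice lay above all of them. The means were 19.5% ± 5.44 and 14.5% ± 1.89 (SD, n = 4 each), a difference of -5.00 percentage points (exact permutation p = 0.171, adjusted p = 0.857). Without WT 3 the difference was -7.49 percentage points. Leaving out WT 3 puts every remaining WT mouse above every null mouse, which fixes the p of that comparison, so none is given. The list came from other mice than the single-cell libraries. Receptors numbered Olfr543 to Olfr692 were the dominant receptor of 3 of 1358 assigned ventral cells, 2 of 182 in WT 4 (1.10%) and 1 of 266 in null 4 (0.38%). The other 6 mice had 0, which allows a share of up to 0.789% in null 1, with the most assigned cells of them, and of up to 4% in WT 3, with the fewest (counting error only). In dorsal cells they took 30.6%, 25.0%, 12.5% and 19.6% in WT and 22.3%, 11.4%, 17.9% and 24.7% in null mice.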

How the data were processed

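Single-cell libraries were made with 10x Chromium v2 chemistry, 1 per mouse (4 WT, 4 null). Per the labels, the authors mapped and filtered them with Cell Ranger on mm10 and deposited raw UMI counts per gene and barcode. For the bulk tables the authors aligned reads with STAR 2.5.2b to GRCm38 and deposited featureCounts read counts per transcript. These counts were fitted per transcript here, with gene names from GENCODE M21. For a named gene with several transcript rows, the row of smallest p was given.

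Ventral, dorsal and other cells were defined by the rule given in the report, UMIs were summed per mouse and class, and genes were tested with edgeR 4.0.16 (TMM, filterByExpr, robust quasi-likelihood test) with Benjamini-Hochberg adjustment over all genes tested; DESeq2 1.42.0 was an alternative. The list of receptors lowered in bulk came from DESeq2 on the bulk counts. CPM of ventral cells in the genotype comparison are scaled by TMM factors over the ventral sums, and those of the zone comparison and its interaction by TMM factors over the ventral and dorsal sums together. CPM of the marker comparison, of Snhg6 and Nqo1 by mouse in dorsal cells and of cells that were not mature are not scaled. Shares were compared over mice with exact permutation tests (Python 3.11.15, scipy 1.17.1, pandas 2.3.3, R 4.3.3). Gene positions came from GENCODE M21. The edgeR step was tested on simulated data with 200 genes changed. No doublet caller was run. Across the 28 pairs of libraries 644 barcodes were shared, 6 of them in ventral cells.

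The members and the 21 gene lists were chosen with earlier results of these data known. Named genes were Upf3b and Upf3a, genes that passed (with the 8 of smallest p per direction where fewer than 5 passed), up to 4 members of each list by level, the 12 genes highest and 12 lowest against dorsal cells, the 10 most common receptors and interaction genes that passed; Zfos1 and the genes of the receptor groups were added after their values were seen. P-values measure the spread between mice of 1 genotype. Alternatives were DESeq2, RLE factors, no count filter, other Omp and receptor limits, thinning, leaving out each mouse, and a block for the replicate number.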

Additional observations from a re-analysis of the deposited data

Results flagged for a closer look

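In 16 of 138 groups of 4 mice (11.6%) a single mouse stood far from the other 3. This share is not set against a chance value. The groups include genes picked because their interaction passed. They also include shares where all mice but 1 were at 0, which alone makes that mouse stand out. In null mice Upf3b was highest in null 3 (2.69 CPM), where the other 3 had 0 to 0.39 CPM. Adcy3 was highest in null 2 (806 CPM), H2-Eb1 lowest in null 2 (10.7 CPM) and Tubb3 lowest in null 4 (237 CPM). Globin RNA was highest in null 3, with Hbb-bs at 53506 CPM and Hba-a2 at 13073 CPM. Obp1a was highest in null 4 among the null mice (622 CPM), although both WT 3 and WT 4 were above it. Null 3 had the lowest ventral share of mature cells among null mice (27.0%). The share of Olfr543 to Olfr692 was above 0 only in WT 4 (1.10%) and null 4 (0.38%).

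Among mice of the same genotype, genes of the zone comparison also stood apart in 1 mouse. Scgb1b27 was at 495 CPM in WT 3 and at 63.6 CPM in null 4, Olfr212 at 29.5 CPM in WT 1, Ccl17 at 295 CPM in WT 3, Jchain at 697 CPM in WT 2 and Mup5 at 171 CPM in null 4. Of these, Mup5 was higher still in WT 4 and WT 3, and Olfr212 in null 2. The genotype effect differed between ventral and dorsal cells (edgeR interaction, log2 scale) for Scgb1b27 (-5.26), Col1a1 (-2.43), Col1a2 (-2.17), Olfr212 (5.22), Ccl17 (-8.52), Dcpp3 (-2.12), Jchain (-7.74) and Mup5 (-2.83). With a mouse left out, Scgb1b27 fell to -0.13 without WT 3 (edgeR adjusted p = 1), Olfr212 to 3.57 without null 2 (edgeR adjusted p = 0.604), Ccl17 to -5.42 without WT 3 (edgeR adjusted p = 0.201) and Dcpp3 to -1.72 without null 4 (edgeR adjusted p = 0.839). Without cells over 5 times the median UMIs of their mouse, an alternative chosen after seeing the data, the interaction of Scgb1b27 was -1.03 (edgeR unadjusted p = 0.135) and that of Mup5 -0.03 (edgeR unadjusted p = 0.898). Over the alternatives other than a mouse left out, this one included, the remaining interactions moved little. Col1a1 ran from -2.55 to -2.44, Col1a2 from -2.28 to -2.18 and Olfr212 from 5.20 to 5.22. Ccl17 ran from -8.65 to -8.51, Dcpp3 from -2.18 to -2.13 and Jchain from -7.81 to -7.74.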

How the results depend on the processing

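Upf3b was the single call in ventral cells (1 gene) under each planned edgeR setting and without each mouse in turn. DESeq2 called 3. With only the 2 mice per genotype with least hemoglobin RNA, chosen after seeing the data, edgeR called 8: Upf3b, Snhg6 (adjusted p = 0.0138), Fxyd2, Zfos1, Reg3g and 3 receptor genes held by few cells. In null 2, 1 of these mice, a single cell held 73 of the 87 Reg3g UMIs and 56 of the 74 Fxyd2 UMIs. Over its alternatives the adjusted p of Snhg6 ran from 0.00199 to 1, with a log2 fold change of 1.26 to 1.62, mice left out included. In dorsal cells the count was 0 to 1, with 0 without null 1. The interaction gave 22 calls without a count filter and 6 to 13 with a mouse left out (13 without null 3). With a single mouse left out the Jchain interaction ran from -10.7 to 0.78 (0.78 without WT 2), and the Upf3a fold change from -0.41 (without WT 3) to 0.028 (0.028 without WT 1, 0.025 without WT 2).

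The direction of 4 of the 5 share differences turned under some setting. For the share of mature cells it ran from -2.50 (without WT 3) to 7.51 percentage points, and was -0.085 without null 2. For the share of all cells it ran from -3.52 to 1.65 with a mouse left out (1.52 without WT 2, 0.097 without null 1, 1.21 without null 3, 1.65 without null 4) and was 1.63 with Omp at 10 UMIs. For a dominant receptor it was -0.83 after thinning and ran from -1.15 (without WT 3) to 5.84. For receptors lowered in bulk it stayed below 0, from -7.49 (without WT 3) to -3.28 with a mouse left out. It was -7.70 (exact permutation p = 0.0857) with the longer receptor list by edgeR's unadjusted p. For Olfr543 to Olfr692 it ran from -0.27 (-0.275) to 0.094 (without WT 4).

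The labels do not say whether replicate numbers pair the mice. Same-numbered mice correlated at 0.43, 0.68, -0.18 and 0.77. The null mouse that correlated best was the same-numbered one for WT 2 and WT 4, but not for WT 1 and WT 3. With the replicate number as a block edgeR still called 1 gene, and the shares had exact permutation p of 0.75, 1, 0.875, 0.25 and 1. The comparison of cells with 0 S100a8 and S100a9 UMIs could not be fitted with all 8 mice, since WT 3, null 3 and null 4 had 0 such ventral cells and WT 4 had 4. With WT 1, WT 2, null 1 and null 2 alone, chosen after seeing the data, edgeR called 9 genes in these cells: Upf3b, Snhg6 (log2 fold change 1.51, adjusted p = 0.00454), Zfos1, mt-Nd3, Rps27rt, Hjurp and the receptor genes Olfr722, Olfr727 and Olfr943. The fold change of H2-Eb1 there was 0.10 (edgeR adjusted p = 0.998). Without TMM factors, an alternative chosen after seeing the data, 22 genes were lower in ventral than dorsal cells in all 8 mice, against 49 with them, and the 24 named genes kept their direction. In simulated data of ventral cells, edgeR found 32.5% of genes changed by 1.5 on the log2 scale.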

Other observations

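Other genes of small p in ventral cells, none past the edgeR limit, are given by mouse. Car2, a carbonic anhydrase also found in red blood cells, was at 90.8, 75.9, 93.6 and 100.0 CPM in WT and 142, 139.7, 308 and 212 CPM in null mice, with no overlap. It was highest in null 3, the mouse with the most hemoglobin RNA. Null 2, where the erythroid genes summed to 90.4 CPM, also lay above all WT mice. The part of red blood cell RNA in the Car2 difference was not tested. Cox7a1, a subunit of cytochrome c oxidase, was at 17.7, 36.8, 12.7 and 16.4 CPM in WT and 49.7, 55.9, 63.3 and 31.6 CPM in null mice, where null 4 fell below WT 2. The transcript 5430416N02Rik was at 11.8, 7.12, 12.7 and 14.98 CPM in WT and 35.5, 32.1, 31.0 and 22.7 CPM in null mice, with no overlap.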
